A study of Saccharomyces cerevisiae with 12 samples.

Results

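Deletion of EUC1 (YMR111C) in budding yeast was compared with wild type on 6 Affymetrix GeneChip Yeast Genome 2.0 arrays, 3 of the wild-type strain Y0003 and 3 of the euc1∆ strain MJK448. These make up 6 of the 12 arrays of the series, taken as the arrays labelled for experiment A. The other 6 arrays hold a wild type of their own and the point mutant euc1-K231R, in which 1 lysine of Euc1 is replaced by arginine. They enter here only in a test of how the effects of the mutants differ, in the K231R effects quoted beside it, and in an alternative fit of 12 arrays. Both strains were grown with shaking at 30°C in YP medium with 2% glucose to an OD600 of 0.7 to 1, and 300 ng of total RNA was labelled by 3' in vitro transcription. The arrays of a group are described as biological triplicates. Each genotype was represented by 1 strain, so any difference between these strains other than the loss of EUC1 cannot be told apart from it, and the sources used here do not give how the gene was removed. As these are bulk samples, fewer cells of a type and less RNA per cell cannot be told apart.

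Euc1 is a DNA-binding protein with a GCR1 domain, a fold it has in common with the glycolytic activator Gcr1. It sits at ub-hotspots, a small set of chromosomal sites where ubiquitin accumulates, and there it brings in Slx5/Slx8, a ubiquitin ligase that recognises proteins modified with SUMO. The segregase Cdc48 extracts ubiquitylated proteins from such sites. Because Euc1 looks like a transcription factor and lies upstream of genes, the comparison asks which transcripts depend on its presence in unstressed, glucose-grown cells.

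Expression was measured for the genes that had a probe set of their own among the 10928 of the array, taken by a yeast name in the deposited annotation and no mark of cross-hybridisation. Values are log2 levels, a difference is euc1∆ minus wild type on that scale, and a gene is called when its limma p-value, adjusted over all genes measured, is under 0.05. The probe sets for the fission yeast S. pombe, which have no target in these cells, gave the background of the array. Their 95th percentile was 5.24, and 5431 genes (97.3%) had a mean above it. The median level of the genes was 10.44 to 10.46 on the 6 arrays, and within a group the correlation between arrays (r, across genes) was 0.996 to 0.999. The third euc1∆ array stood apart from the others: on the first principal component it lay at -0.14, against 7.20 and 5.45 for the other euc1∆ arrays and -6.06 to -3.16 for wild type. Markers of MATa cells were present on every array. All 7 of them lay above the S. pombe percentile, and their array mean was 11.40 to 11.51 in wild-type cells and 11.36 to 11.49 in euc1∆, while the alpha-factor gene MF(ALPHA)1 was below that percentile on all 6 arrays (3.77 to 4.10). The other 3 of 4 MATalpha markers lay above the percentile, and the array mean of the 4 was 6.65 to 6.81 in wild-type cells and 6.69 to 6.85 in euc1∆. The signal of the 3' end over the 5' end of 7 yeast control genes, a sign of RNA quality, had a log2 median of 1.21 to 1.35 in wild-type cells and 1.05 to 1.25 in euc1∆. Its part in the results was not tested.

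EUC1 itself was at 9.02, 9.15 and 9.14 on the wild-type arrays and at 3.72, 3.88 and 3.64 on the euc1∆ arrays. All 3 mutant values were below the S. pombe percentile and all wild-type values far above it. The fitted difference was -5.36 ± 0.07 (SE, adjusted p = 2.26e-07), but the array background limits it. Set against the S. pombe percentile, EUC1 was at least 14.5-fold lower in euc1∆.

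Few genes differed between the strains. Of all genes, 7 (0.125%) were called, 3 higher and 4 lower, EUC1 among the latter. The median size of a difference was 0.05, the 95th percentile of the sizes was 0.20 and the 99th was 0.33. Only 12 genes differed by more than 0.5 and EUC1 alone by more than 1. The direction was balanced, with 2816 genes above 0 and 2765 at or below it. The 95% confidence interval of the difference lay wholly within -1 to 1 for 5574 genes (99.9%) and within -0.5 to 0.5 for 5400 genes (96.8%). At an unadjusted p under 0.05, 355 genes were higher (6.36%) and 335 were lower (6%). In a limma fit that took in every probe set of the array, 444 genes (7.96%) had an unadjusted p under 0.05, beside 404 of the 4999 S. pombe probe sets (8.08%). A difference above 0.3 in size was seen for 83 genes (1.49%) and for 85 S. pombe probe sets (1.70%). Above 0.5 there were 12 genes and 1 S. pombe probe set, and the largest rises were 0.87 and 0.46. The median size of a difference was 0.08 among the S. pombe probe sets, which lie at background.

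**Figure D1:**
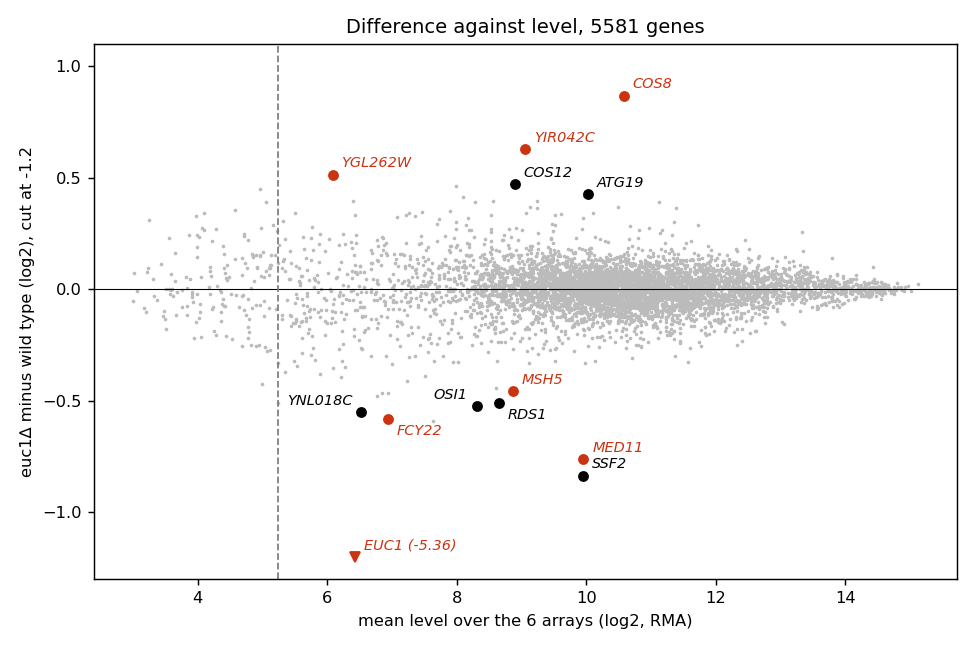
Difference between euc1∆ and wild type (log2, y axis, with EUC1 drawn at the lower edge because its value of -5.36 is off the scale) against the mean level over the 6 arrays (log2, x axis) for all genes measured. Red points are the 7 called genes, black points are 6 further named genes that were not called, and the dashed line is the S. pombe background (5.24); most genes lie within 0.2 of 0, and the spread is wider at low levels.

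The spread around 0 depended on the level of the gene. The 150 genes at or below the S. pombe percentile had a median size of difference of 0.10 with a median SE of 0.10, and the 993 genes above a level of 12 had 0.03 with an SE of 0.04. No gene above 12 differed by more than 0.5.

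The highest-ranked rise was in COS8 (YHL048W). It belongs to the Cos proteins, membrane proteins that help sort cargo into the vacuole for turnover and whose genes lie near chromosome ends. COS8 was at 10.09, 10.24 and 10.10 in wild type and at 11.05, 11.00 and 10.98 in euc1∆, so that the groups lay well apart. It rose by 0.87 ± 0.05 (SE, adjusted p = 0.00226), which is 1.83-fold. YIR042C, whose product has no known function, was at 8.87, 8.69 and 8.64 in wild type and at 9.40, 9.31 and 9.38 in euc1∆, and rose by 0.63 ± 0.06 (SE, adjusted p = 0.031). YGL262W, also of unknown function, was at 5.86, 5.80 and 5.80 in wild type and at 6.44, 6.30 and 6.27 in euc1∆, a rise of 0.51 ± 0.05 (SE, adjusted p = 0.031). These 3 genes are each the first or second measured gene from a chromosome end, on chromosomes VIII, IX and VII.

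Of the called genes, MED11 (YMR112C) fell most after EUC1. It encodes a subunit of the head module of Mediator, the complex that links transcription factors to RNA polymerase II, and it is the gene next to EUC1. It was at 10.35, 10.27 and 10.38 in wild type and at 9.52, 9.49 and 9.70 in euc1∆, a difference of -0.76 ± 0.06 (SE, adjusted p = 0.0147). The third euc1∆ array was the nearest to wild type but still lay below every wild-type value. FCY22 (YER060W-A), related to purine-cytosine permeases, was at 7.31, 7.15 and 7.23 in wild type and at 6.67, 6.56 and 6.71 in euc1∆. It fell by 0.58 on the log2 scale (± 0.06 SE, adjusted p = 0.031). MSH5 (YDL154W), a MutS homologue needed for meiotic crossovers, was at 9.05, 9.18 and 9.05 in wild type and at 8.65, 8.58 and 8.68 in euc1∆, and fell by 0.46 on the log2 scale (± 0.05 SE, adjusted p = 0.0471). In all 7 genes the arrays of the groups did not overlap. Leaving out any 1 array other than the third of euc1∆ kept 2 or 3 of these calls, EUC1 and COS8 among them each time, while leaving out that array kept all 7 and gave 21 calls.

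**Figure D2:**
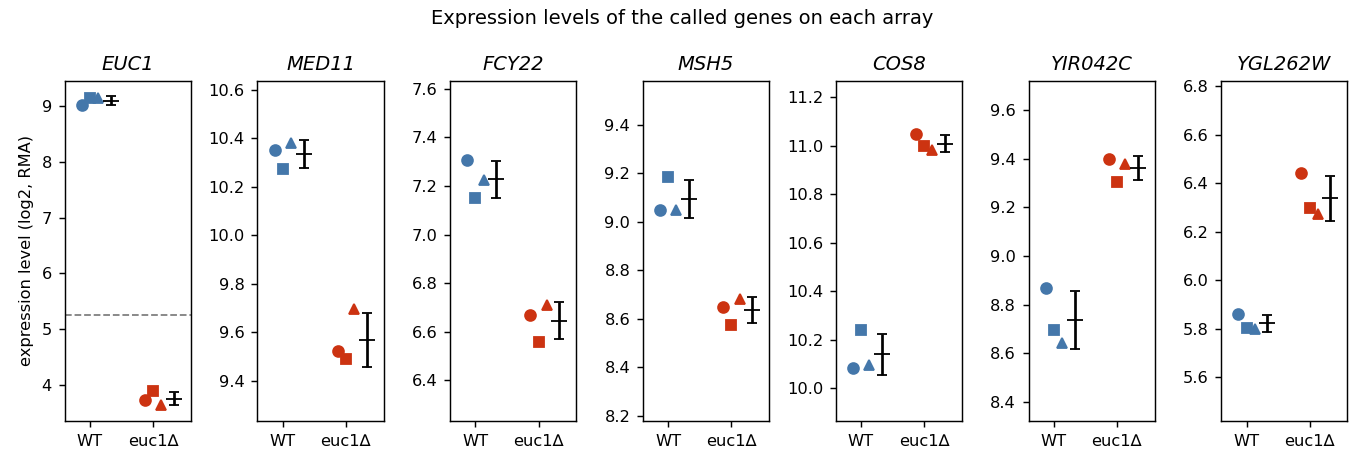
Level (log2, y axis) of the 7 called genes on each wild-type (blue) and euc1∆ (red) array, with circles, squares and triangles for arrays 1, 2 and 3 and the mean ± SD of 3 arrays in black. Panels other than EUC1 span 1.4 units each; the dashed line in the EUC1 panel is the S. pombe background (5.24), and in every panel the groups lie apart.

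With the called genes included, 549 genes (9.84%) had all 3 euc1∆ arrays above all wild-type arrays and 460 (8.24%) had them below. Of these, 198 were not called but had an unadjusted p under 0.01 and the larger group mean above background, 104 higher and 94 lower. The 12 with the largest difference in each direction had adjusted p between 0.082 and 0.259, so none of the following 24 genes passed.

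Among the higher 12, COS12 stood first at 0.47 ± 0.12 (SE), with 8.81, 8.56 and 8.60 in the wild type and 9.07, 8.93 and 9.38 in euc1∆. ATG19 (0.43) encodes the receptor that delivers aminopeptidase I to the vacuole. The small heat-shock protein gene HSP26 had 0.37, the methionine permease gene MUP3 0.36 and DFP4, of the DUP240 membrane protein family, 0.34. BNA2 (0.39 ± 0.06 SE) encodes the dioxygenase that opens the route from tryptophan to NAD, and its arrays read 9.14, 8.95 and 9.02 in the wild type and 9.45, 9.50 and 9.34 in euc1∆. CDA1 (0.40) encodes a chitin deacetylase of the spore wall and SPO21 (0.35) a spindle pole protein of meiosis. SCM4 (0.37), YBL029W (0.42), YAR068W (0.39) and YML100W-A (0.39) completed the set. YML100W-A passed the background filter only through its euc1∆ mean of 5.25. Its wild-type arrays, at 4.79, 4.86 and 4.92, and its first euc1∆ array, at 5.08, were below the S. pombe percentile.

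Among the lower 12, SSF2 had the largest difference of any gene not called, at -0.84 ± 0.11 (SE, adjusted p = 0.082). It encodes a factor for assembly of the large ribosomal subunit and lies beside a ub-hotspot. YNL018C (-0.55), OSI1 (-0.52), RDS1 (-0.51), AAD3 (-0.48), YLR031W (-0.47) and SPO22 (-0.46) followed. SPO22 acts with Msh5 in the formation of meiotic crossovers, RDS1 encodes a zinc cluster transcription factor and AAD3 a putative aryl-alcohol dehydrogenase. NFT1 (-0.39), a putative ABC transporter gene, ECM10 (-0.39), of the mitochondrial Hsp70 family, NOP53 (-0.33), for large subunit assembly, the DNA polymerase gene POL4 (-0.32) and the glutaredoxin gene GRX8 (-0.32) had smaller values. CYB2 (-0.59) and SAE2 (-0.51), named after their values were seen, also exceeded 0.5 in size, but their arrays overlapped, and the value of CYB2 rested on the third euc1∆ array (6.46 against 7.87 and 7.68 on the other euc1∆ arrays).

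Many of these genes lay near chromosome ends. The 10 outermost measured genes of each chromosome end make up 320 genes (5.73%), and they hold 10 of the 31 called or largest-difference genes. They also hold 23 of the 83 genes with a difference above 0.3 in size (27.7%). These genes were picked by their differences, so the shares are a description. Genes near the ends had a lower median level, 9.25 against 10.46 for all genes, and a median size of difference of 0.07 against 0.05. Of the 320, 3 rose and 0 fell (limma), and their median difference was 0.01. At an unadjusted p under 0.05, 36 were higher (11.25%) and 24 lower (7.5%), beside 6.36% and 6% of all genes. There were 3 pairs of direct neighbours among the 31 genes: EUC1 with MED11 on chromosome XIII, COS12 with YGL262W at an end of chromosome VII (0.47 and 0.51), and RDS1 with AAD3 at an end of chromosome III (-0.51 and -0.48).

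Genes of the COS family, many of which have near-identical copies that the array cannot tell apart, were measured for 6 of 12 listed members. COS8 rose, COS12 had 0.47 and COS10 had 0.33 (7.06, 7.36 and 7.13 in the wild type and 7.53, 7.40 and 7.62 in euc1∆). COS9 had 0.11, and the remaining members, COS6 and COS111, were within 0.06 of 0. The median over the 6 was 0.22, against 0.00 over all genes. In the related DUP240 family all 10 members were measured. None was called, and the median was 0.11. DFP4 (0.34) and KTD1 (0.11), which encodes a defence factor against the K28 toxin, were the 2 with non-overlapping higher arrays, and 0 had lower ones. Over all genes, 9.84% and 8.24% had such arrays.

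Of the 10 measured genes on either side of EUC1, MED11 was the only one called. HFD1, on the opposite flank and encoding a fatty aldehyde dehydrogenase, was at 0.22 ± 0.06 (SE, adjusted p = 0.269) with higher euc1∆ arrays that did not overlap wild type. Next to it MYO5, a myosin gene, had -0.10, ILV2, for acetolactate synthase, had 0.11, and SPG4 had 0.03. Beyond MED11, FOL3, for dihydrofolate synthetase, had 0.08, YMR114C 0.06 and MGR3 -0.04. Farther out, YKU80, encoding a subunit of Ku, had -0.17 ± 0.04 (SE), SPC24, a kinetochore gene, -0.26 ± 0.09 (SE) and the purine synthesis gene ADE17 0.26 ± 0.04 (SE), none of which passed (adjusted p 0.246, 0.344 and 0.138). At an unadjusted p under 0.05, 5 of the 20 genes were higher (25%) and 3, MED11 included, were lower (15%). Over all genes the shares were 6.36% and 6%. SRT1 (0.23) and ASI1 (0.14) were among the higher genes, and SHH3 had -0.34 with overlapping arrays. The median over the 20 genes was 0.01.

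**Figure D3:**
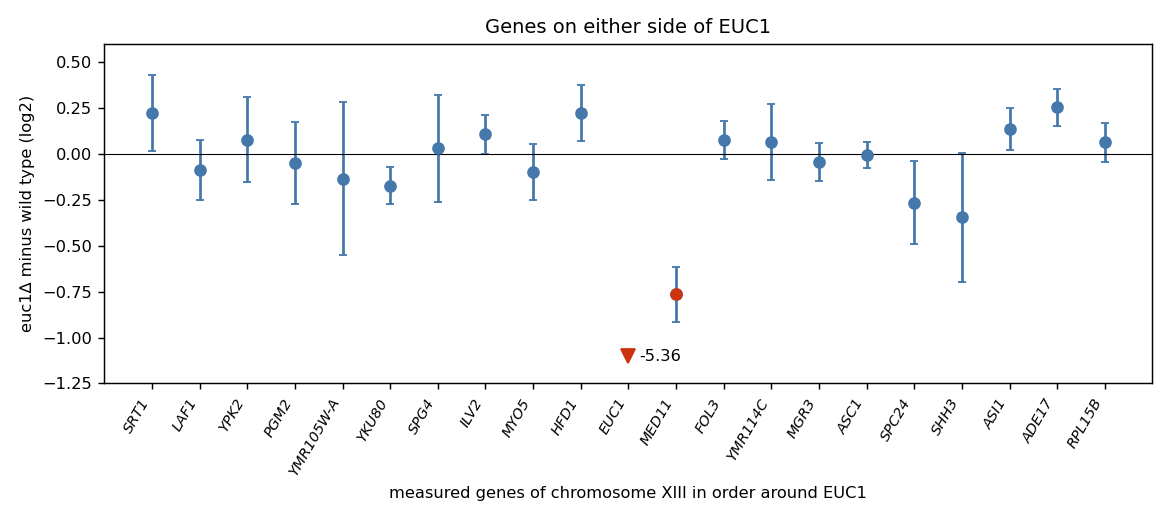
Difference between euc1∆ and wild type (log2, y axis) for EUC1 and the 10 measured genes on either side of it, in chromosome order (x axis). Points are limma estimates with 95% confidence intervals, red marks the called genes, and the triangle stands for EUC1, whose value of -5.36 is off the scale; MED11 at -0.76 has the largest difference of the 20 neighbours.

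The 14 genes next to ub-hotspots were taken from the marks in a supplementary gene list of the study, and need not be the whole of the set that the study counts. Of them 0 were called by limma, with 4 higher and 1 lower at an unadjusted p under 0.05, beside the 6.36% and 6% of all genes. Their median difference was 0.02 and the median size of difference 0.11, against 0.00 and 0.05 over all genes. The median difference was 0.11 without the third euc1∆ array and below 0 without the first array of either group. SSF2 was at 10.45, 10.26 and 10.38 in wild type and at 9.38, 9.44 and 9.76 in euc1∆, below wild type on every array but least so on the third. ATG19 was at 9.76, 9.82 and 9.85 in wild type and at 10.37, 10.29 and 10.05 in euc1∆ (0.43 ± 0.08 SE, adjusted p = 0.203), again with the third array nearest to wild type. ATG34, a related receptor gene that neighbours ATG19 at the same hotspot, was at 8.50, 8.62 and 8.70 in wild type and at 8.84, 8.94 and 8.77 in euc1∆ (0.24 ± 0.07 SE, adjusted p = 0.256).

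MCH1, related to monocarboxylate permeases, was at 0.16 ± 0.04 (SE) and RCO1, a subunit gene of the Rpd3S histone deacetylase, at 0.17 ± 0.06 (SE), both with arrays that did not overlap. The other 9 genes, CIT2, PSA1, SDD2, ADH3, SPO20, DFP3, PEX9, TFB1 and ISF1, lay between -0.12 and 0.14. ISF1 had the widest spread, with wild-type arrays at 6.56 to 6.89 and euc1∆ arrays at 6.31 to 7.11. Without the third euc1∆ array, SSF2 and ATG19 were called, at -0.95 and 0.52. Leaving out any other array called neither, and over the alternative limma runs their adjusted p reached 0.391 and 0.569.

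**Figure D4:**
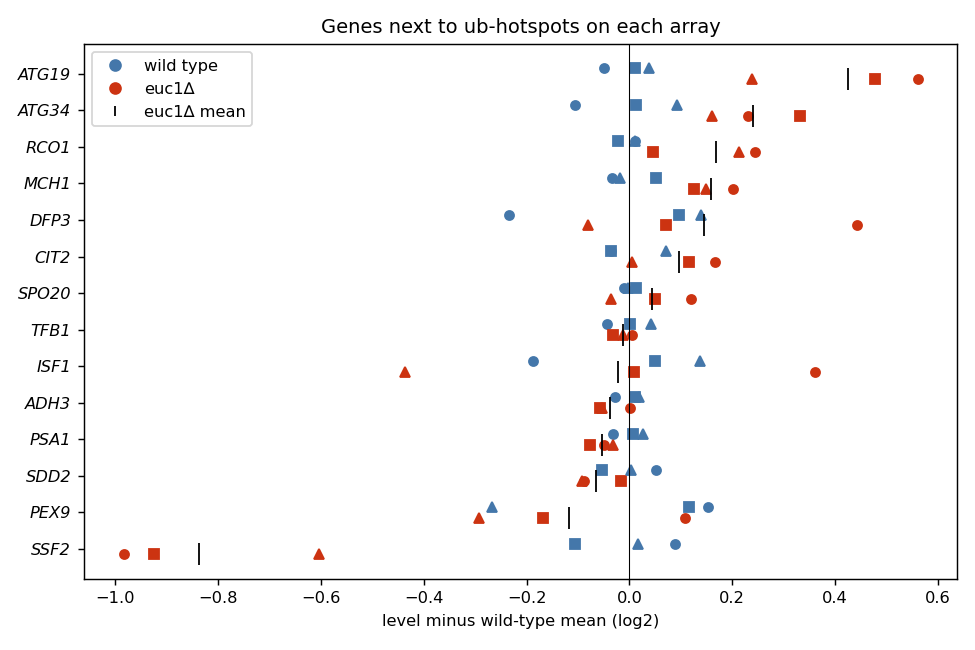
Level of the 14 ub-hotspot adjacent genes on each array, as the log2 level minus the wild-type mean of that gene (x axis), with wild type in blue, euc1∆ in red, array number by symbol (circle 1, square 2, triangle 3) and the euc1∆ mean as a black bar. SSF2 lies to the left on all euc1∆ arrays (-0.84), ATG19 to the right (0.43), and for 8 genes the groups overlap.

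Euc1 also binds at 3 sites without a ub-hotspot, and 12 genes were taken as their nearest measured neighbours. By limma 0 were called, and the median was 0.01. At an unadjusted p under 0.05, 2 were higher (16.7%) and 2 lower (16.7%), beside 6.36% and 6% of all genes. MAE1, for the mitochondrial malic enzyme, was at 13.05, 13.08 and 13.08 in wild type and at 13.16, 13.20 and 13.22 in euc1∆, a difference of 0.12 ± 0.03 (SE, adjusted p = 0.246). SOL3, for 6-phosphogluconolactonase, had 0.15, MPC2, for a mitochondrial pyruvate carrier, 0.08, YAP1801 0.10, TFA1, for a TFIIE subunit, -0.12, and the peroxin gene PEX18 -0.22 at a level below background. SSF1, the close copy of SSF2, lies beyond RRP3 from one of these sites and had -0.21 ± 0.10 (SE, adjusted p = 0.449). The third euc1∆ array of SSF1 (10.48) was within the wild-type range of 10.41 to 10.57, unlike the others (10.09 and 10.19). Whether RNA of one copy also reached the probe set of the other was not tested. RRP3 had -0.07, and IXR1, TCD2, SSZ1 and PAN5 lay within 0.04 of 0.

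Genes of the machinery around Euc1 were measured as well. Of 30 genes of SUMO conjugation, SUMO-targeted ubiquitin ligases and Cdc48, 0 were called by limma and 2 were lower at an unadjusted p under 0.05 (6.67%, near the 6% of all genes), with a median near 0. The 2 were UBA2 (-0.13), a subunit gene of the SUMO-activating enzyme, and ULP1 (-0.15), a SUMO protease gene. SLX8 had 0.14, at 8.70, 8.73 and 8.57 in the wild type and 8.73, 8.90 and 8.78 in euc1∆. Of the 83 measured genes with a genetic interaction with EUC1, 0 were called and 3 were higher (3.61%) and 7 lower (8.43%) at an unadjusted p under 0.05, shares near the 6.36% and 6% of all genes. They included the TFIID subunit gene TAF1 (-0.12), the ribosome assembly gene BMS1 (-0.17), the splicing gene AAR2 (-0.32), GEM1 (-0.25), NFT1 (-0.39) and YNL234W (0.13). The other genes for DNA-binding proteins with a GCR1 domain did not follow EUC1: MSN1 had 0.07, while GCR1, HOT1 and CBF2 lay within 0.02 of 0.

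In Mediator, MED11, the neighbour of EUC1, fell and the other 23 measured subunit genes were not called. The paper reports an extra copy of MED11 in the strains of its main spot assays of EUC1 genetic interactions. The cause of the MED11 fall was not tested here. NUT1 had -0.21 ± 0.05 (SE, adjusted p = 0.242), at 10.65, 10.70 and 10.79 in the wild type and 10.49, 10.46 and 10.57 in euc1∆. MED7 (0.13), SOH1 (0.11) and MED8 (0.08) were among 4 of the 24 genes with non-overlapping higher arrays, and GAL11 had -0.08. MED11 and NUT1 were the 2 with non-overlapping lower arrays. Over all genes, 9.84% and 8.24% had such arrays. At an unadjusted p under 0.05, 2 were higher and 2 lower (8.33% each), near the 6.36% and 6% of all genes. The median over the 24 genes was 0.00.

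In several biosynthetic routes more genes were higher than lower at an unadjusted p under 0.05, where all genes gave 6.36% and 6%, although none of the genes in these lists was called. Not every route leaned this way. Lysine synthesis had 0 of 10 genes higher and 2 lower, aromatic amino acids 0 of 13 higher and 0 lower, and pyrimidine synthesis and salvage 1 of 16 higher and 1 lower. In purine synthesis 6 of 22 genes were higher and 0 lower, and the median of the list was 0.03, or near 0 without the third euc1∆ array. The 6 were all genes of the pathway from phosphoribosyl pyrophosphate to AMP. ADE17, for the last steps to IMP, was at 13.16, 13.19 and 13.26 in the wild type and 13.50, 13.41 and 13.47 in euc1∆ (0.26 ± 0.04 SE, adjusted p = 0.138). ADE1 was at 12.41, 12.43 and 12.43 in the wild type and 12.59, 12.61 and 12.61 in euc1∆ (0.18 ± 0.03 SE, adjusted p = 0.137). ADE2 (0.22), ADE13 (0.14), ADE8 (0.14) and ADE12 (0.13) were the others, each with arrays clear of wild type. ADE4 (0.03), ADE6 (0.01) and ADE16 (-0.04), of the same pathway, and the phosphoribosyl pyrophosphate synthase genes PRS1 to PRS5 (-0.06 to -0.01) were closer to 0.

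One-carbon metabolism, which supplies formyl groups to purine synthesis, had 3 of 18 genes higher and 0 lower and a median of 0.06. MTD1, a methylenetetrahydrofolate dehydrogenase gene, was at 11.56, 11.58 and 11.58 in the wild type and 11.93, 11.90 and 11.76 in euc1∆ (0.29 ± 0.05 SE, adjusted p = 0.158). SHM2, for the cytosolic serine hydroxymethyltransferase, had 0.17 and GCV1, of the glycine cleavage system, 0.24. In arginine metabolism 5 of 15 genes were higher and 1 lower. ARG4, for argininosuccinate lyase, was at 11.49, 11.50 and 11.55 in the wild type and 11.74, 11.73 and 11.72 in euc1∆ (0.22 ± 0.03 SE, adjusted p = 0.115). ARG7 (0.30), ARG56 (0.23), ARG1 (0.15) and ARG2 (0.12) act in synthesis as well, whereas the lower gene, CAR2 (-0.17), acts in arginine breakdown.

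Vitamin and NAD genes had 8 of 32 higher and 0 lower, with a median of 0.05. Besides BNA2 they included BNA1 (0.21) and BNA6 (0.15) of the same NAD route, the nicotinic acid permease gene TNA1 (0.13), the biotin synthase gene BIO2 (0.16) and the thiamine regulator gene THI2 (0.27). Branched-chain amino acid synthesis had 4 of 12 higher and 0 lower (ILV1 0.14, LEU4 0.10, BAT1 0.08 and ILV2 0.11). Histidine synthesis had 2 of 7 higher, HIS7 (0.17) and HIS5 (0.12), and 1 lower, HIS3, whose signal was at or below the S. pombe percentile. Sulfate assimilation and methionine had 6 of 28 higher, such as MUP3 and the cystathionine beta-lyase gene STR3 (0.27), and 1 lower, MET4 (-0.25), which encodes the activator of these genes. GCN4, the general activator of amino acid synthesis, was at 14.10 to 14.13 in the wild type and at 14.11 to 14.12 in euc1∆.

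Genes of ribosome assembly leaned to the other side. In 111 of 112 genes of this list the difference was below 0, and the median was -0.09, again with 0 called by limma. At an unadjusted p under 0.05, 18 were lower (16.1%) and 0 higher, beside 6% and 6.36% of all genes. The 3 arrays of euc1∆ did not share this shift. Relative to the wild-type mean, the mean over the 112 genes was -0.22 and -0.15 on the first 2 euc1∆ arrays and 0.03 on the third, above the wild-type arrays (-0.03 to 0.03). UTP13 (-0.21), BMS1 (-0.17), RRP5 (-0.15) and ESF1 (-0.19), which act early on the pre-ribosome, were among the 18, as was SSF2. Genes of RNA polymerase I and III had the same array order, at -0.10, -0.06 and 0.05, whereas the 120 cytosolic ribosomal protein genes had -0.01 to 0.01 on wild-type arrays and -0.02 to 0.01 on euc1∆ arrays. Without the third euc1∆ array the median of the ribosome assembly list was -0.17.

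General stress genes and chaperones had the reverse order of arrays. The mean of 44 stress genes relative to wild type was 0.23, 0.06 and -0.13 on the euc1∆ arrays, against -0.09 to 0.05 in wild type, and the mean of 26 chaperone genes was 0.21, 0.14 and -0.14, against -0.07 to 0.04. In both lists the euc1∆ arrays thus lay on either side of wild type. HSP26 (8.89, 8.94 and 9.01 in wild type, 9.45, 9.33 and 9.18 in euc1∆) was the only stress gene that was higher at an unadjusted p under 0.05, and GDB1 (-0.17), of glycogen breakdown, and MOH1 (-0.30) were lower. These shares, 2.27% higher and 4.55% lower, stand beside 6.36% and 6% of all genes. The purine, one-carbon, arginine and vitamin lists did not show this division, since all 3 euc1∆ arrays lay above all wild-type arrays in their list means.

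**Figure D5:**
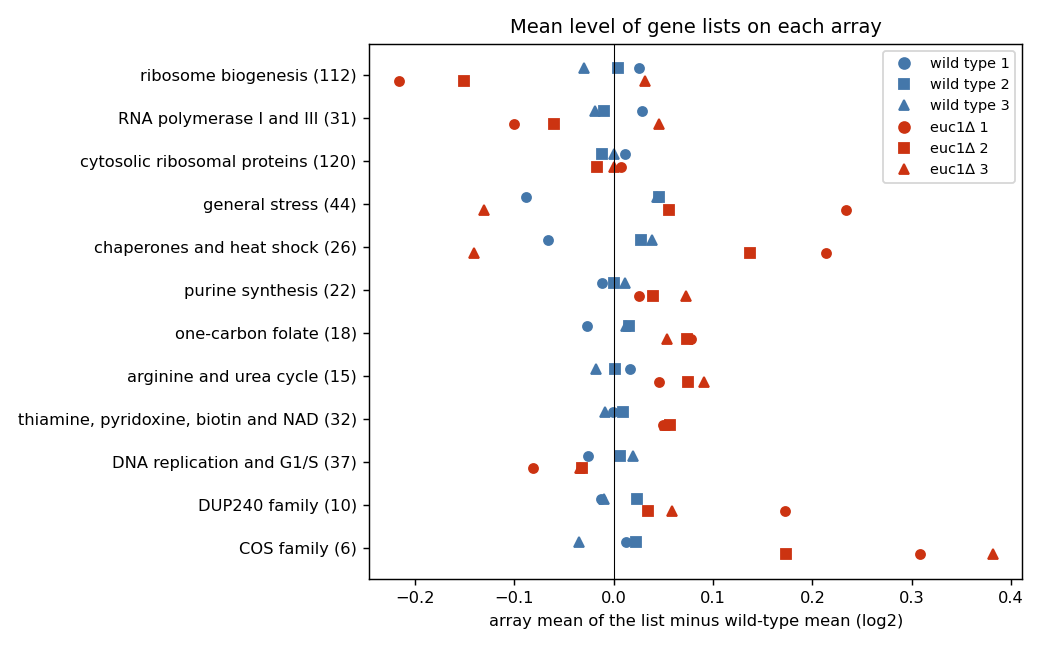
Mean level of 12 gene lists on each array, as the log2 value minus the mean of the wild-type arrays (x axis), with the number of measured genes in brackets, wild type in blue, euc1∆ in red and array number by symbol. The third euc1∆ array (red triangle) lies at 0.03 for ribosome biogenesis and -0.13 for general stress, opposite to the first, while in the purine, one-carbon, arginine and vitamin lists all euc1∆ arrays lie to the right of wild type.

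Genes of DNA replication and the G1/S transition were below 0 in 33 of 37 cases, with a median of -0.05. At an unadjusted p under 0.05, 5 were lower (13.5%) and 0 higher, beside 6% and 6.36% of all genes. The differences were small, as in POL3 (-0.09), POL12 (-0.12), both DNA polymerase subunit genes, the transcription factor gene SWI4 (-0.15), the cyclin gene CLB5 (-0.12) and CTF18 (-0.13). Silencing and telomere genes had 4 of 22 lower (18.2%) at the same threshold, among them ORC1 (-0.14), ESC1 (-0.17) and RIF2 (-0.12), and 0 higher. SIR2, SIR3 and SIR4 lay within 0.03 of 0.

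Among 51 genes of meiosis and sporulation, which are little expressed in growing haploid cells (40 above the S. pombe percentile), MSH5 fell, and 4 were higher (7.84%) and 5 lower (9.80%), MSH5 included, at an unadjusted p under 0.05, near the 6.36% and 6% of all genes. DIT1, of spore wall synthesis, had a wild-type mean of 7.05 and euc1∆ arrays at 7.42, 7.33 and 7.39 (0.33 ± 0.04 SE, adjusted p = 0.0988), and SPS4 was at 6.63, 6.71 and 6.69 in the wild type and 6.45, 6.42 and 6.35 in euc1∆ (-0.27 ± 0.04 SE, adjusted p = 0.115). Directions were thus mixed, and the median over the list was 0.02. Of the 7 markers of sporulating cells, 0 were called. MATa markers leaned below 0 in 6 of 7 cases, with STE6, the exporter of a-factor, at -0.15 ± 0.03 (SE, adjusted p = 0.241) and MFA1, for a-factor itself, at -0.14. HO, for the mating-type endonuclease, had -0.22. Of the 4 MATalpha markers, STE3, the a-factor receptor gene of alpha cells, had 0.34 with overlapping arrays, and the other 3 were below 0. They were MF(ALPHA)1 (-0.22, at a level below background), SAG1 (-0.04) and MF(ALPHA)2 (-0.02). None of these passed.

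The effect of the deletion was tested against that of euc1-K231R in 1 limma fit of 12 arrays, as the deletion effect minus the K231R effect. The experiments have no arrays in common, and experiment and allele cannot be told apart in this difference. Of all genes, 70 (1.25%) were called, 43 with the higher value in the deletion and 27 with the lower. The count depended on single arrays: it was 21 to 36 without array 2 or 3 of wild type or array 1 or 2 of euc1∆ in experiment A, or without array 1 or 2 of wild type or array 2 of K231R in experiment B, and 44 without array 1 of K231R. Among the genes called in euc1∆, COS8 (0.87 in the deletion and 1.13 in K231R, difference -0.26 ± 0.14 SE) and YIR042C (0.63 and 0.57) were not called as different. EUC1, MED11, FCY22, MSH5 and YGL262W were. For MED11 the value was -0.76 in the deletion and 0.11 in K231R, a difference of -0.88 ± 0.08 (SE, adjusted p = 1.84e-04). SSF2 was at -0.84 in the deletion and -0.46 in K231R, and this difference was not called.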

How the data were processed

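RNA from cells in biological triplicate was hybridised to the arrays, and the authors summarised the probe signals by RMA. The deposited log2 values were used as given. They look as if each experiment had been normalised by itself, so levels were compared only within experiment A. Genes were probe sets with an S. cerevisiae name and no sign of cross-hybridisation in their identifier, and 5564 of them had a symbol through the RefSeq gene table of assembly R64, which served for gene order as well. The array's annotation build was not given in the sources used here. Deposited fold changes and adjusted p-values, the authors' own comparison, were not used.

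Differences were fitted with limma 3.58.1 in R 4.3.3 (lmFit and eBayes, two-sided, Benjamini-Hochberg over all genes), and the script was tested on simulated data. Depth has no meaning for arrays, where 3 arrays in each group limit the precision. Nothing shows that replicates of a group came from separate clones. Named genes were those called, the 12 largest differences in each direction not called, hotspot and EUC1 neighbours, and markers. Up to 6 members of each list with the smallest p were named as well. The 12 in each direction had an unadjusted p under 0.01, no overlap and the larger group mean above background. The members and lists were chosen with earlier results of these data known. Alternatives were another prior, quantile normalization, median centring, filters, other fits, array weights, a replicate block and leaving out each array. A search of promoter sequences could not be run.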

Additional observations from a re-analysis of the deposited data

Results flagged for a closer look

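The following 27 genes gave an effect in the euc1 deletion that differed from the effect in euc1-K231R at an adjusted p under 0.05 (limma, 1 fit of 12 arrays). Each value is the log2 difference in the deletion minus that in K231R. Experiment and allele cannot be told apart in these values, and the number of genes that differ fell from 70 to as few as 21 when 1 array was left out. Groups of 3 arrays are too small to test single arrays as outliers, although the third euc1∆ array stood apart on the first principal component.

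Among the genes called in the deletion, the value was -4.34 for EUC1, -0.88 for MED11, -0.51 for FCY22, -0.53 for MSH5 and 0.69 for YGL262W. EUC1 was itself lower in K231R (-1.02), but less so than in the deletion. MED11, FCY22 and MSH5 had values near 0 in K231R (0.11, -0.07 and 0.07), and YGL262W had -0.18.

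Among genes not called in the deletion, the value was 1.16 for YNL018C, where the deletion had -0.55 and K231R -1.71. It was 0.75 for HSP26, 0.69 for CDA1, 0.57 for BNA2, 0.51 for YML100W-A and 0.46 for SPO21, all with a positive value in the deletion and a negative one in K231R. The one-carbon gene MTD1 had 0.34 (0.29 in the deletion and -0.06 in K231R), the arginine gene ARG7 0.39 (0.30 and -0.10) and YNL234W 0.37 (0.13 and -0.24). SDD2, next to a ub-hotspot, had -0.42 (-0.07 in the deletion and 0.36 in K231R) and the replication gene POL12 -0.29 (-0.12 and 0.16). The sporulation gene SPS4 had -0.57 (-0.27 and 0.30) and the endonuclease gene HO -0.38 (-0.22 and 0.16).

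The other genes with the smallest p for the difference, like SDD2, had most of it from K231R, and none of them was called in the deletion. The pyrimidine synthesis gene URA3 had -2.78 (0.01 in the deletion, 2.79 in K231R), URA1 0.80 (0.03 and -0.76) and URA4 0.80 (0.07 and -0.73). The riboflavin gene RIB4 had 1.01 (0.08 and -0.93), the malate dehydrogenase gene MDH2 1.24 (0.10 and -1.15) and the peptide transporter gene PTR2 -1.40 (-0.24 and 1.16). CSS1 had 0.87 (-0.10 and -0.96) and the regulator gene ADR1 0.66 (-0.07 and -0.72). FEX2, a fluoride exporter gene with a larger p, had 0.66 (0.34 and -0.32).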

How the results depend on the processing

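The number of genes called depended on the fit. Against 7 in all (3 higher, 4 lower), there were 20 (12 and 8) with a trended and robust prior, 11 (3 and 8) after quantile normalization, 12 (5 and 7) in a fit of 12 arrays, 42 (21 and 21) with array weights and 3 (1 and 2) in a fit over all probe sets. Median centring and the filter at the S. pombe level left 7, and all S. cerevisiae probe sets gave 6. Leaving out 1 array gave 2 to 21 calls, 1 to 9 higher and 1 to 12 lower. It was 3 without the first wild-type array, 2 without array 2 or 3 of wild type or array 1 or 2 of euc1∆, and 21 without array 3 of euc1∆. The number of genes with different effects in the mutants, 70, ranged from 21 to 75 when 1 of the 12 arrays was left out, with 21 and 25 without array 2 or 3 of wild type and 28 and 35 without array 1 or 2 of euc1∆ in experiment A, and 27 and 36 without array 1 or 2 of wild type and 44 and 26 without array 1 or 2 of K231R in experiment B.

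With the replicate number as a block, 1 gene (0 higher, 1 lower) was called, EUC1. Same-numbered arrays correlated in their deviations from the group means with r of -0.20, 0.11 and -0.21. Between arrays of different number r ran from -0.21 to 0.31. The deviations are from means of few arrays, so these values cannot decide whether same-numbered cultures were grown or processed together. Whether the numbers mark pairs was not tested.

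Of 139 named genes, 131 kept their direction in every alternative run, and all 14 reversed values, of 2081, were in genes with a difference of at most 0.14 in size. Values with 1 array left out ran from -0.0795 to 0.1716 for SPG4 (also -0.0073), -0.0023 to 0.1439 for YMR114C, -0.0048 to 0.2571 for DFP3, -0.0346 to 0.0083 for TFB1, -0.0467 to 0.0095 for PAN5 (also 0.0032), -0.0436 to 0.0018 for SSZ1 and -0.0116 to 0.0977 for TCD2. ISF1 turned to 0.0031 and 0.0467 without array 2 or 3 of wild type, to 0.1850 without array 3 of euc1∆ and to 0.0124 after quantile normalization. SSZ1 had 0.0004 with array weights. The sign of the median was kept for 32 of 66 lists in all 15 alternatives. The cause of these shifts was not tested.

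With 3 arrays in each group, an exact permutation test of 1 gene cannot go below 0.1, and the calls rest on the spread that limma shares among genes. Differences of genes at or below the S. pombe percentile are compressed by background.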

Other observations

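Probe sets that match several near-identical genes were left out of the gene counts. In a limma fit over all probe sets 0 of 132 were called, with 29 (22.0%) at an unadjusted p under 0.05, beside 7.96% of genes. The probe set named for YAR073W (IMD1), in the family of IMP dehydrogenases that open the guanine branch of purine synthesis, was at 9.89, 9.83 and 9.78 in wild type and at 9.10, 9.11 and 9.36 in euc1∆, a difference of -0.64 (adjusted p = 0.209). The one named for YHR216W (IMD2) had -0.67 (adjusted p = 0.387). The arrays did not overlap in either, and which member of the family gave the signal cannot be told. IMD3 and IMD4, which have probe sets of their own, had -0.05 and 0.02. Among control probe sets, bacterial dap sets had -0.35 and -0.33, also without a call. Bacterial sets for thr (-0.28), lys (-0.31) and phe (-0.16) were lower in euc1∆ too, and no bacterial set among those with the smallest p was higher. The 5.8S rRNA control sets named for S. cerevisiae and S. pombe had larger values, -0.68 and -0.86. Of 166 control sets, 27 (16.3%) had an unadjusted p under 0.05, beside 7.96% of genes in the same fit. The cause was not tested.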
